A study of Mus musculus with 4 samples.

Results

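The genes of 36 aminoacyl-tRNA synthetases, the enzymes that load amino acids onto transfer RNAs, were followed in Hepa1c1c7 mouse hepatoma cells exposed to diethyl maleate (DEM). Members were a fixed list of genes, 20 cytosolic and 16 mitochondrial (symbol ending in 2), and a probe belonged to a member if its accession was a RefSeq transcript of that gene. All 36 had a probe (60 of the 41174 on the array), and all 36 were among the 15537 genes tested. For 6 hours the cells had received either 100 µM DEM, a thiol-reactive electrophile that the series title names as an activator of the transcription factor NRF2, or its vehicle DMSO (dimethyl sulfoxide), with 2 arrays per group. The labels name no genetic change in any of the 4 samples. Nothing in the labels ties the 2 samples of a group to different cultures, and p-values therefore reflect a spread that could be technical. Liver tissue is named as the RNA source in the extract protocol alone; all other labels name the cell line.

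A synthetase joins an amino acid to its transfer RNA, and the charged transfer RNA then delivers that amino acid to the ribosome. Mitochondria have their own synthetases, encoded in the nucleus, which serve the few proteins translated inside the organelle. Several cytosolic synthetases sit together in a multisynthetase complex held by scaffold proteins. Many cytosolic synthetase genes are known targets of ATF4, a transcription factor of the amino acid response and the integrated stress response, which also drives amino acid transporters and synthetic enzymes.

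ATF4 binds an element shared with C/EBP factors, and 5 cytosolic members carried its core near their start sites. They are shown as the member windows in which this core was found. The sequences are RefSeq promoter windows of GRCm38.p6, printed 5′ to 3′ in the direction of the gene, with the match to TGATGNAA, on either strand, in capitals. For Aars (chr8:111033700-111033767, plus strand), Gars (chr6:55037941-55038000, plus strand) and Tars (chr15:11399659-11399703, minus strand) the match ended 105, 23 and 8 bases before the start site. For Iars (chr13:49682126-49682155, plus strand) and Yars (chr4:129189895-129189924, plus strand) it began at base 8 and base 4 of the transcript.
Aars: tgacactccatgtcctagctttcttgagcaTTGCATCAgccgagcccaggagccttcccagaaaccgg
Gars: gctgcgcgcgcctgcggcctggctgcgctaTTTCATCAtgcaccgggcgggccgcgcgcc
Tars: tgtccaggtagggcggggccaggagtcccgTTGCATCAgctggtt
Iars: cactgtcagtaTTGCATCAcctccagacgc
Yars: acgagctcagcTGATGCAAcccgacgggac

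Windows of 250 bases before to 50 after the start were at hand for 27 members. The core TGATGNAA was in 5 of 13 cytosolic windows (38.5%) and in 0 of 14 mitochondrial windows, beside 3.97% of all 32851 windows and 2.61% of the 8815 genes that were tested and had a window. A second match in Aars began at base 10 of the transcript. All 5 genes belong to the cytosolic members known as ATF4 targets, of which 8 had a window, and 0 of the 5 windows of other cytosolic members held it. The core of the antioxidant response element, TGACNNNGC, through which NRF2 acts, was in 3 cytosolic windows (Aars, Iars and Mars) and 3 mitochondrial ones (Aars2, Lars2 and Nars2), beside 12.4% of all windows and 17.0% of those of tested genes. The E-box CACGTG was in 4 cytosolic windows (Aars, Farsb, Iars and Tars) and in that of Ears2, beside 7.15% of all windows and 12.2% of those of tested genes. In Iars the antioxidant core ran across the start site. These matches describe letters and are not shown to be sites of binding.

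No synthetase gene passed the test between DEM and DMSO. Of the 36 members, 0 were called higher and 0 lower at a limma adjusted p under 0.05 (Benjamini-Hochberg over all genes tested), beside 0.714% of all genes called higher and 0.508% called lower (1.22% in all). Over all genes that is 111 higher and 79 lower, a split that turned to 404 and 163 with median scaling and to 198 and 374 with spike-in scaling. At an unadjusted p under 0.05, 1 member was higher (Fars2) and 1 lower (Sars2), beside 9.02% and 10.2% of all genes. The log2 changes of the members ran from −0.33 to 0.44 around a median of 0.039, and 20 were above 0 and 16 below. This split followed the scaling of the arrays, with 35 above and 1 below after median scaling and 15 above and 21 below after spike-in scaling. The DEM and DMSO arrays did not overlap for 18 of 36 members (10 higher, 8 lower in DEM), beside 50.6% of all genes.

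The intervals around these values were narrow with the scaling used here. They leave out the uncertainty of that scaling: the median of all genes was at 0.14 with median scaling and at −0.081 with spike-in scaling. The 95% interval of the fold change (limma, not adjusted for the number of genes) lay within 2-fold in either direction for 36 of 36 members, beside 88.9% of all genes tested. It lay within 1.5-fold for 34 of 36, beside 65.5% of all genes. The exceptions were Nars, the asparaginyl enzyme, with an upper bound of 1.58-fold, and Fars2, the mitochondrial phenylalanyl enzyme, with 1.67-fold. Every member was well above background on all 4 arrays, whereas a gene needed only 2 of 4 to be tested. On the arrays 0 spots were saturated.

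**Figure D1:**
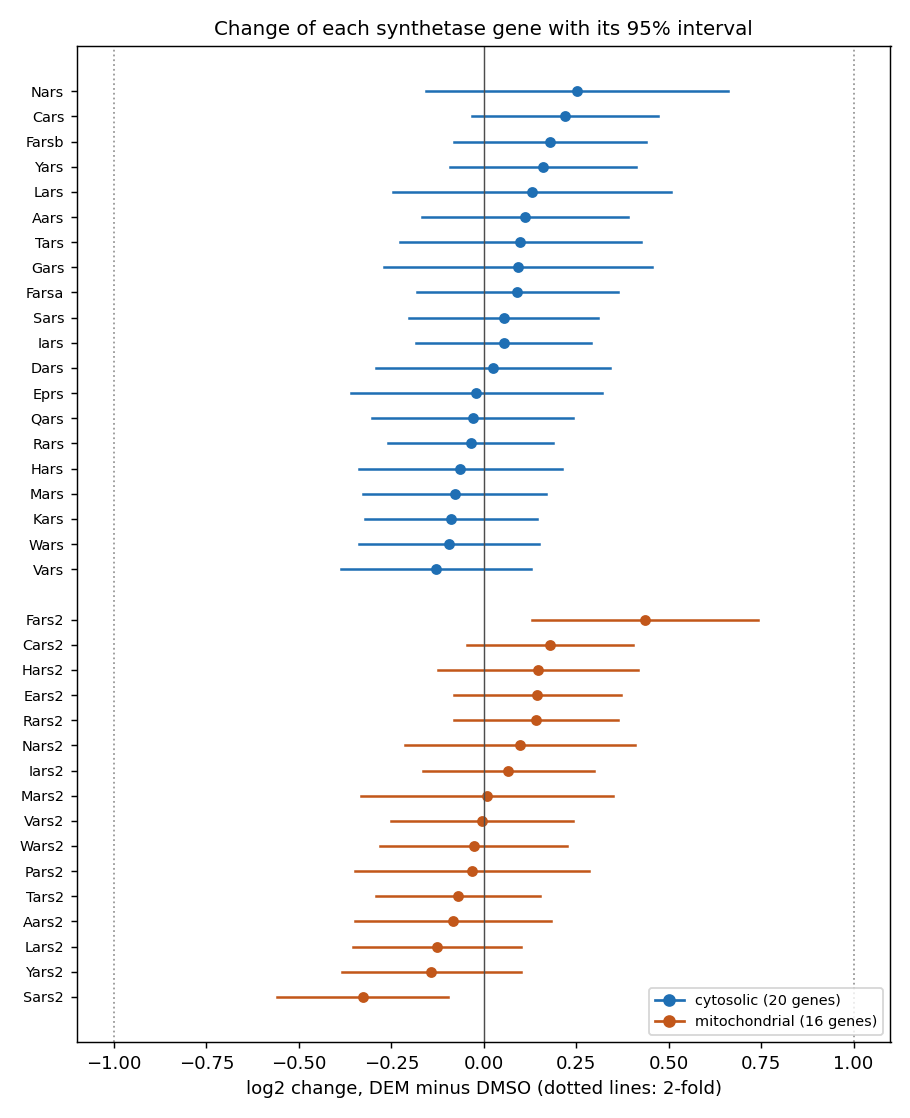
Change of each synthetase gene (log2, DEM minus DMSO, horizontal axis), with points for the fitted change and bars for its 95% interval (n = 2 arrays per group), cytosolic genes above and mitochondrial genes below. All 36 bars lie inside the dotted 2-fold lines, and the bars of Fars2 and Sars2 alone leave out 0.

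Levels are given below as log2 of the processed signal minus the 75th percentile of the array, so a level of 0 equals that percentile. They are read across arrays for 1 gene, never between genes, since probes differ in brightness. Changes are means of 2 DEM arrays minus means of 2 DMSO arrays on the same scale, with standard errors from limma.

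The cytosolic genes with the largest differences lay slightly higher in DEM. Nars was at 2.30 and 2.34 in DMSO and at 2.39 and 2.76 in DEM. Both DEM arrays were above both DMSO arrays, but the gap between the DEM arrays (0.38) was larger than the difference between groups (0.25 ± 0.15, SE, limma adjusted p = 0.452). Cars, the cysteinyl enzyme, was at 2.46 and 2.57 in DMSO and at 2.69 and 2.77 in DEM. Its arrays did not overlap, and the change of 0.22 ± 0.09 (1.16-fold, limma adjusted p = 0.308) exceeded the gap within either group. Its 3 probes gave changes of 0.22, 0.28 and 0.21. Cysteine, which this enzyme loads, is also a building block of glutathione.

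Farsb, the beta subunit of the phenylalanyl enzyme, was at 0.88 and 0.84 in DMSO and at 0.97 and 1.11 in DEM (change 0.18 ± 0.10, limma adjusted p = 0.403). Farsa, the alpha subunit, had a change of 0.09 ± 0.10. Yars, the tyrosyl enzyme, was at 2.95 and 2.97 in DMSO and at 3.06 and 3.19 in DEM (change 0.16 ± 0.09, limma adjusted p = 0.437). For Farsb and Yars the groups did not overlap and the difference exceeded both gaps within groups, yet neither passed the test. A difference above both gaps was found in 5 of 20 cytosolic and 9 of 16 mitochondrial members, beside 6138 of all 15537 genes.

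Lars, the leucyl enzyme, which also acts as a leucine sensor for mTORC1, was at 5.41 and 5.67 in DMSO and at 5.57 and 5.77 in DEM. The groups overlapped, the change was 0.13 ± 0.14, and its other probes gave 0.035 and −0.31. Aars, the alanyl enzyme, whose promoter is shown above, was at 5.31 and 5.40 in DMSO and at 5.39 and 5.55 in DEM, again with overlap (0.11 ± 0.10, limma adjusted p = 0.631). Tars, the threonyl enzyme, was at 5.47 and 5.55 in DMSO and at 5.48 and 5.73 in DEM (0.10 ± 0.12). In all 3 genes the higher DEM value came from replicate 2.

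Vars, the valyl enzyme, was the cytosolic member furthest below 0, at 4.28 and 4.13 in DMSO and at 4.09 and 4.06 in DEM (change −0.13 ± 0.10, limma adjusted p = 0.540). Its groups did not overlap, but its DMSO arrays lay 0.14 apart. The members nearest to 0 were Eprs, a single protein that loads glutamate and proline, Dars, the aspartyl enzyme, and Qars, the glutaminyl enzyme. Eprs was at 3.55 and 3.79 in DMSO and at 3.58 and 3.72 in DEM (−0.02 ± 0.13), and its 4 probes ran from −0.06 to 0.04. Dars was at 2.31 and 2.55 in DMSO and at 2.44 and 2.47 in DEM (0.02 ± 0.12). Qars was at 5.20 and 5.02 in DMSO and at 5.10 and 5.06 in DEM (−0.03 ± 0.10). In these 3 genes the DEM arrays fell between the DMSO arrays, and the DMSO arrays set the range.

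The other 9 cytosolic members were Farsa, Gars, Sars, Iars, Rars, Hars, Mars, Kars and Wars. They load phenylalanine, glycine, serine, isoleucine, arginine, histidine, methionine, lysine and tryptophan, and Gars and Kars also encode the mitochondrial enzyme for their amino acid. Their changes ran from −0.09 (Wars) to 0.09 (Gars). Of these genes, the DEM and DMSO arrays did not overlap in Rars, Kars and Wars, in each of which DEM was lower. Their changes were −0.04 ± 0.08, −0.09 ± 0.09 and −0.09 ± 0.09. Over all genes, the arrays did not overlap in 50.6%, and both DEM arrays were lower in 25.6%.

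**Figure D2:**
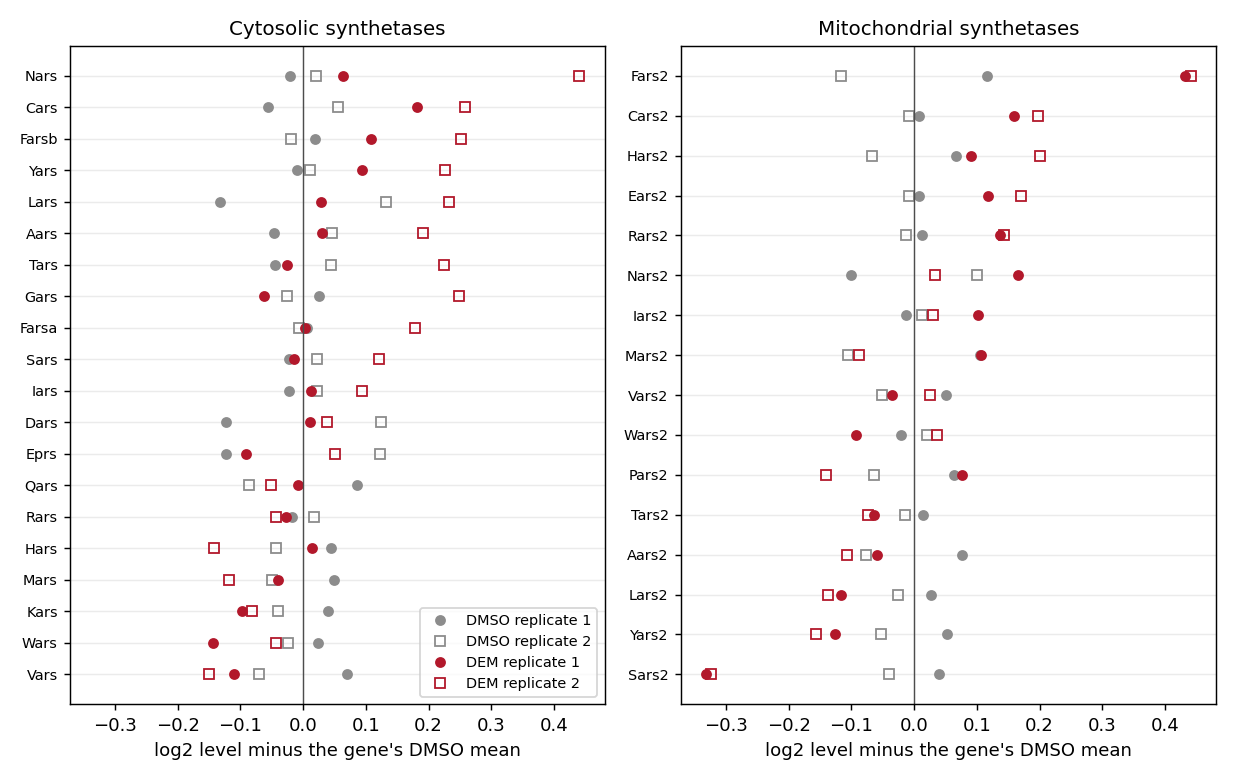
Level of each synthetase gene on each array (log2, horizontal axis) relative to the mean of its DMSO arrays, with grey for DMSO, red for DEM, filled circles for replicate 1 and open squares for replicate 2. DEM replicate 2 lies to the right of DEM replicate 1 in 15 of 20 cytosolic genes and in 8 of 16 mitochondrial genes.

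As a class, the cytosolic members had a median change of 0.054, beside −0.0061 over all genes tested, with 12 above and 8 below 0. The sign of this median depended on the scaling: it was 0.199 with median scaling, which put all genes at 0.14, and −0.021 with spike-in scaling, which put them at −0.081. Their arrays did not overlap in 8 of 20 genes (4 higher, 4 lower in DEM), or 40.0%, beside 50.6% of all genes. The median difference from the DMSO mean was −0.0026 on DEM replicate 1 and 0.108 on DEM replicate 2, so the 2 DEM arrays differed by more than the class did from DMSO. DEM replicate 2 was above DEM replicate 1 in 15 of 20 cytosolic genes, beside 51.7% of all genes. Leaving out 1 DEM array leaves the other alone. The class median was therefore again 0.108 without DEM replicate 1 and −0.0026 without DEM replicate 2.

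Among the cytosolic members, the 13 genes known as ATF4 targets had a median of 0.093, with 9 above and 4 below 0. Of these, 0 were called, beside 1.22% of all genes. The other 7 (Dars, Farsa, Farsb, Hars, Kars, Qars and Rars) had a median of −0.03, with 3 above and 4 below 0, and 0 were called. The difference between these medians rested on DEM replicate 2. Without that array the medians were −0.015 for the targets and 0.0034 for the others, and without DEM replicate 1 they were 0.19 and −0.044. DEM replicate 2 was above DEM replicate 1 in 11 of the 13 targets, by a median of 0.14.

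The 5 genes with the element shown above had a median change of 0.099, and the 8 other cytosolic members with a window had 0.0018. These medians were 0.013 and −0.012 without DEM replicate 2, and 0.22 and 0.044 without DEM replicate 1. Across the 230 tested genes with the core in their window the median was 0.023, and across tested genes with a window that lacked it 0.0072. Gars, the glycyl enzyme, was at 1.83 and 1.78 in DMSO and at 1.74 and 2.05 in DEM. Its DEM arrays thus lay on both sides of its DMSO arrays. Iars, the isoleucyl enzyme, was at 5.11 and 5.16 in DMSO and at 5.15 and 5.23 in DEM, with a change of 0.05 ± 0.09.

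The 8 members of the multisynthetase complex (Eprs, Iars, Lars, Mars, Qars, Rars, Kars and Dars) had changes from −0.09 to 0.13 and a median of −0.025. The 12 enzymes outside it ran from −0.13 to 0.25 with a median of 0.096. By catalytic fold, the 10 class I genes had a median of −0.025 and the 10 class II genes 0.092. Eprs, which loads both glutamate and proline, was counted in class I only. Without DEM replicate 2 the medians were 0.0091 for the enzymes outside the complex and 0.0069 for class II, and without DEM replicate 1 they were 0.21 and 0.19. For the complex they were −0.018 and −0.0028, and for class I −0.018 and 0.0038. Each of these groups had 0 calls, beside 1.22% of all genes, and the differences between them were not tested. The scaffold genes of the complex, Aimp1, Aimp2 and Eef1e1, had changes of −0.06, 0.13 and 0.0014, with 0 of 3 called. The DEM and DMSO arrays did not overlap in 0 of these 3, beside 50.6% of all genes.

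The mitochondrial members held the widest differences in both directions. Fars2 was at 0.04 and −0.20 in DMSO and at 0.35 and 0.36 in DEM. The DEM arrays agreed within 0.010 and both lay above the DMSO arrays, which were 0.23 apart. The change was 0.44 ± 0.11 (1.35-fold, 95% interval 1.09 to 1.67, unadjusted p = 0.0157), and the limma adjusted p over all genes was 0.162.

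Sars2, the mitochondrial seryl enzyme, was at 0.14 and 0.06 in DMSO and at −0.23 and −0.22 in DEM. Both DEM arrays lay below both DMSO arrays by more than the gap within either group. The change was −0.33 ± 0.09 (0.797-fold, 95% interval 0.678 to 0.936, unadjusted p = 0.0163, limma adjusted p = 0.164). Each of these genes had 1 probe, so no second probe bears on either value.

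Cars2, the mitochondrial cysteinyl enzyme, which is also known to make cysteine persulfides, was at 1.88 and 1.87 in DMSO and at 2.03 and 2.07 in DEM. Its groups did not overlap, its change was 0.18 ± 0.08 (limma adjusted p = 0.343), and its second probe gave 0.13. Hars2, the mitochondrial histidyl enzyme, was at −1.48 and −1.61 in DMSO and at −1.45 and −1.34 in DEM (0.15 ± 0.10, limma adjusted p = 0.510). Its groups were apart, with DEM replicate 1 close to the nearer DMSO array.

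The other 12 mitochondrial members had changes from −0.14 (Yars2) to 0.14 (Ears2). Of these, Ears2, Rars2 and Iars2 were higher in both DEM arrays, and Tars2, Lars2 and Yars2 were lower in both. Over all genes, both DEM arrays were higher in 24.9% and lower in 25.6%. Lars2, the mitochondrial leucyl enzyme, was at 9.60 and 9.55 in DMSO and at 9.46 and 9.44 in DEM (−0.13 ± 0.08, limma adjusted p = 0.495). It had 1 probe, the brightest of all member probes, and whether that probe reads Lars2 alone was not tested. The probes of Wars2, the mitochondrial tryptophanyl enzyme, disagreed, with changes of −0.03 for the brightest and 0.35 and −0.17 for the others.

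The mitochondrial class had a median of 0.0023, with 8 genes above and 8 below 0 (0.147 with median and −0.072 with spike-in scaling). Arrays of the groups did not overlap in 10 of 16 genes (6 higher, 4 lower in DEM), beside 50.6% of all genes. The mitochondrial median minus the cytosolic one was −0.051 with all arrays, 0.086 without DEM replicate 2, 0.0072 without DMSO replicate 1 and 0.017 with the mean of the probes of a gene. The order of the classes thus changed with the array left out and with the choice of probe.

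**Figure D3:**
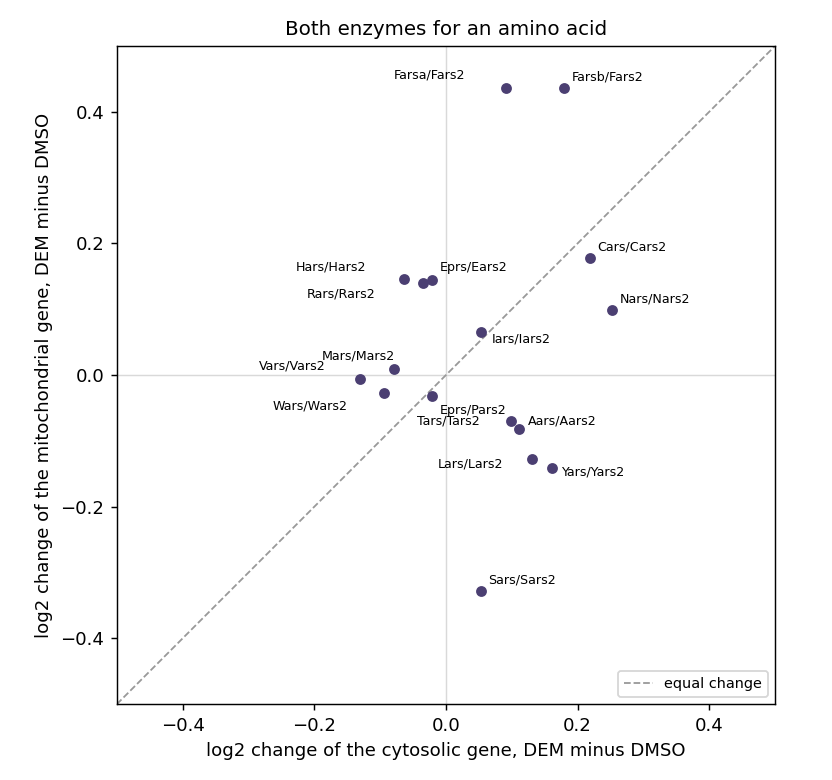
Log2 change (DEM minus DMSO) of the cytosolic gene (horizontal axis) and the mitochondrial gene (vertical axis) for the same amino acid, 1 point per pair of genes, with a dashed line at equal change. Of 17 pairs, 9 lie above the line and 8 below, and the points furthest from it hold Fars2 and Sars2.

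Set side by side for each amino acid, cytosolic and mitochondrial genes formed 17 pairs, with the phenylalanyl subunits counted apart and Eprs set against both Ears2 and Pars2. The changes had the same sign in 8 pairs and opposite signs in 9. The mitochondrial change was the larger in 9 pairs and the cytosolic in 8, with a median difference of 0.013. The widest gaps were in the seryl pair, where Sars had 0.05 and Sars2 −0.33, the phenylalanyl pair of Farsa (0.09) and Fars2 (0.44), and the tyrosyl pair of Yars (0.16) and Yars2 (−0.14). In the cysteinyl pair, Cars had 0.22 and Cars2 0.18. The differences within pairs were not tested.

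Several probes were tested for 16 members. They gave the same sign in 10 members and differed in sign in 6, with a median span of 0.077 between the highest and the lowest probe. The span was 0.44 for Lars and 0.52 for Wars2, the widest of the 16. Of 60 member probes, 58 were bright enough to test and 0 were called. At an unadjusted p under 0.05, 2 probes were higher (those of Fars2 and a second probe of Cars) and 2 lower (those of Sars2 and the third probe of Lars). With 1 probe per gene, 9.02% of all genes were higher and 10.2% lower at that threshold. The smallest limma adjusted p of a probe was 0.163. Probe sequences were not used here, so signal from other genes, related or not, was not tested.

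Neighbouring genes of transfer RNA charging had 0 calls, beside 1.22% of all genes called. The 8 others on the list were Qrsl1, Gatb and Gatc, which make the mitochondrial glutaminyl transfer RNA by amidation, Mtfmt, which formylates the initiator, Tarsl2, Aarsd1, Dtd1 and Xpot, which exports transfer RNAs from the nucleus. Their median was 0.085 and they ran from −0.22 (Aarsd1) to 0.21 (Xpot). The 8 elongation factors had a median of −0.056 and ran from −0.33 (Tsfm, a mitochondrial factor) to −0.0037 (Gfm1). They had 0 calls, beside 1.22% of all genes. All 8 were below 0, beside 51.2% of all genes, but 7 were above 0 after median scaling. The arrays did not overlap in 2 of 8, beside 50.6% of all genes.

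The amino acid response genes gave a different picture on the same arrays. Of 24 listed, 22 were tested, and 3 were called higher and 0 lower, beside 0.714% and 0.508% of all genes. The other 19 were not called, and the median change of the list was 0.27. The rises were in Slc7a11, the cystine importer (5.15 ± 0.13, 35.5-fold), Slc1a4, a neutral amino acid transporter (2.07 ± 0.12), and Sesn2, a sestrin that senses leucine (0.80 ± 0.08), at limma adjusted p values of 0.00442, 0.0258 and 0.0456. In 13 of the 22 both DEM arrays were above both DMSO arrays and in 0 below, beside 24.9% and 25.6% of all genes. Some of these genes are also driven by NRF2, and the list was chosen with earlier results of these data known.

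Within that list, Atf4 itself was at 2.42 and 2.46 in DMSO and at 2.61 and 2.84 in DEM (0.29 ± 0.11, limma adjusted p = 0.281). Asns, the asparagine synthetase, a standard ATF4 target, had a change of 0.21 ± 0.12, and Trib3, a pseudokinase induced by ATF4, had 1.06 ± 0.17 (limma adjusted p = 0.0797). Psat1 and Phgdh, of serine synthesis, had 0.01 ± 0.10 and 0.01 ± 0.09. DEM replicate 2 was above DEM replicate 1 in 20 of the 22 genes, by a median of 0.21. The shift between the DEM arrays seen in the cytosolic synthetases was thus present in this list as well. The median difference of the list from the DMSO mean was 0.19 on DEM replicate 1 and 0.40 on DEM replicate 2. For the synthetases, the class medians without each DEM array are given above.

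**Figure D4:**
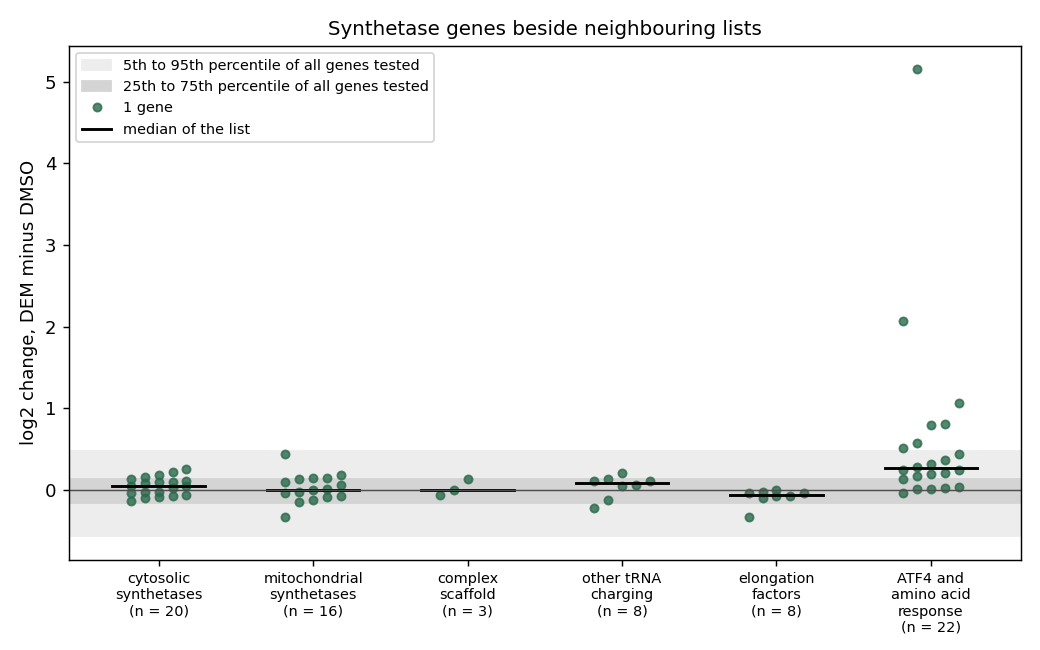
Log2 change (DEM minus DMSO, vertical axis) of the genes tested in each list, with 1 dot per gene and a bar at the median, over grey bands for the spread of all 15537 genes. All 20 cytosolic and 16 mitochondrial synthetase genes lie between −0.33 and 0.44, inside the band from the 5th to the 95th percentile of all genes (−0.57 to 0.47), whereas the response list reaches 5.15.

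Across the series, 50.4% to 52.6% of probes were well above background on each array, and arrays correlated across genes at 0.994 within each group and at 0.989 to 0.991 between groups. Of the hepatoma and liver markers, 7 were tested, among them Afp, Alb, Krt8 and Krt18, while Hnf4a, Apoa1 and Ttr were too dim to test. Of the markers of other cells, 3 of 4 for fibroblasts (Col1a1, Dcn and Pdgfrb) and 1 of 5 for leukocytes (Cd14) were tested, and 3 of 3 endothelial markers were too dim. None of these marker genes was called at a limma adjusted p under 0.05, beside 1.22% of all genes. At an unadjusted p under 0.05, the liver markers Apob (3.45 ± 0.80), Foxa2 (0.45 ± 0.08) and Afp (0.29 ± 0.09) were higher and Cd14 (−0.45 ± 0.12) and Dcn (−0.26 ± 0.09) lower. Apob was well above background on 3 of 4 arrays, and the other fibroblast markers tested gave 0.27 ± 0.11 for Pdgfrb and −0.17 ± 0.14 for Col1a1. The part of other cells in the synthetase values was not tested.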

How the data were processed

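Per the labels' protocols, 500 ng of RNA from each of 4 samples went into an amplification and labelling kit, and each sample has an Agilent mouse array read in a single colour. The file headers give Feature Extraction version 10.7.3.1, protocol GE1_107_Sep09, an annotation on mm9, 1 slide and 1 scan time, so neither could be tested as a batch. The deposited values are processed signals, an intensity on a linear scale after Feature Extraction's background subtraction, with flags for each spot. The authors' value table equals them at all 45018 spots of each array, so its scale is linear and uncentred (column medians 13.8 to 16.2).

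Here each array's log2 values were centred on their 75th percentile (43379 spots, controls left out), outlier spots were dropped and spots of a probe averaged. Accessions were named through RefSeq (GRCm38.p6), giving 26690 of 41174 probes 1 symbol. The member Mars is listed there as Mars1. A gene was tested through its brightest probe well above background on at least 2 of 4 arrays. DEM was compared with DMSO by limma 3.58.1 (lmFit, eBayes) in R 4.3.3 over all 15537 genes, with probes that have no symbol counted by accession, Benjamini-Hochberg adjustment, a threshold of 0.05 and 95% intervals. The fit was tested on simulated data with independent noise drawn from its own estimated spread. Shifts of whole arrays were not simulated, so that test does not bear on them.

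Named with values on each array were the called members (0), the 8 cytosolic and 4 mitochondrial members with the largest absolute change and the 3 cytosolic members with the smallest. Gars, Iars, Lars2 and Atf4 were added after their values were seen. Members and lists were chosen with earlier results of these data known. Protein sequences were planned but not used here. A marker gene of the lists is not reported here. The number of arrays limits the precision.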

Additional observations from a re-analysis of the deposited data

How the results depend on the processing

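The counts of 0 called higher and 0 called lower held under all 16 alternatives tried, which changed the scaling, background correction, value source, filter on dim probes, choice of probe, eBayes settings, replicate block and arrays left out. Under these the smallest limma adjusted p of any member ran from 0.0680 (an intensity trend with robust fitting) to 0.834 (spike-in scaling). Removing the filter on dim probes, DMSO replicate 1 or DMSO replicate 2 left 0 calls among all genes tested too, so those settings say nothing about the members. Counts over all genes (111 higher, 79 lower) became 61 and 32 with quantile normalization, 437 and 370 with normexp on the median spot signal, 230 and 196 with the filter on all 4 arrays, 415 and 311 with a trend, and 492 and 390 with a trend and robust fitting. Without DEM replicate 1 they were 69 and 52, and without DEM replicate 2, 64 and 38. The authors' value table equals the processed signals at every spot, so that alternative repeated the main fit and adds nothing to it. The class medians moved with the scaling of the arrays. Median scaling shifted the median of all genes to 0.14 and gave 0.199 for the cytosolic and 0.147 for the mitochondrial class, and 15 members changed sign. Scaling on spike-in probes shifted all genes to −0.081 and gave −0.021 and −0.072. Relative to all genes the medians stayed at 0.060 and 0.0083 in both. That was fixed in advance, since each of these scalings shifts all genes of an array by the same value. Leaving out 1 array at a time, the cytosolic median ran from −0.0026 to 0.108 and the mitochondrial median from −0.032 to 0.084, the latter without DEM replicate 2. Across the alternatives, Fars2 stayed above 0 (0.32 to 0.58) and Sars2 below 0 (−0.40 to −0.18). A stable sign was not particular to them: other members, among them Cars, Cars2, Farsb, Nars and Yars, also kept theirs, while the rest changed sign under some settings. With the replicate number as a block, the changes of the members and the medians (0.054 and 0.0023) stayed the same, as the balanced layout requires. In that fit 0 members were called, and 74 genes were called higher and 69 lower in place of 111 and 79. The labels do not say that the replicate numbers pair the samples. The difference between the DMSO replicates correlated with that between the DEM replicates at 0.138 over all genes.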
